A study of Mus musculus with 8 samples.

Results

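The clustered histone genes were compared between Zeb1-/- EpCAM+ and Zeb1-/- EpCAM- HSPCs. The members were the protein-coding genes of the count table whose symbol begins with Hist1h, Hist2h, Hist3h or Hist4h, which gave 67 of 54532 genes. They encode linker histone H1 (6 genes) and the core histones H2A (18 genes), H2B (18 genes), H3 (12 genes) and H4 (13 genes). All libraries came from bone marrow LSK cells, which lack lineage markers and carry C-KIT and SCA-1, of C57BL/6 mice aged 8 to 12 weeks and bearing conditional Zeb1 alleles with Mx1-Cre. pIpC induces Mx1-Cre, which also deletes in cells other than blood cells, and RNA was taken 14 days after the last dose. There were 4 EpCAM+ and 4 EpCAM- libraries, with 4 mice given per genotype, and no library from undeleted mice, so both fractions carried the deletion. Each library held 14114491 to 17073546 counted reads, and Epcam, the surface protein used for the sort, was at 187 ± 32.7 CPM (reads per 1e6 counted; SD, n = 4) in EpCAM+ and 3.86 ± 3.61 CPM in EpCAM- libraries.

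Core histones H2A, H2B, H3 and H4 form the octamer around which DNA is wrapped, and H1 binds the linker DNA between nucleosomes. Most clustered histone genes are replication dependent: they are transcribed mainly in S phase, have no introns, and their mRNAs usually end in a conserved 3' stem-loop that binds SLBP rather than in a poly(A) tail. Some of these genes can also give polyadenylated transcripts that run past the stem-loop, which have been described in differentiating or noncycling cells. The cDNA kit used here, SMART-Seq v4, primes on poly(A), so the counts describe the polyadenylated or internally primed part of histone RNA, and the share of all histone RNA that they represent was not measured.

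The stem-loop is shown first, because it is where the normal histone mRNA ends. A 6-base perfect stem with a 4-base loop beginning with TTT was found in the longest GENCODE M21 transcript of 43 of the 67 members, in 6 spellings. Each is written 5' to 3' as DNA with the loop in capitals.
Found in 25 members of the H1, H2A, H2B and H3 classes, Hist1h2ae, Hist1h2bg, Hist1h1c, Hist1h3a and Hist3h2ba among them: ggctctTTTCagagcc
Found in 7 H4 genes, Hist1h4d among them: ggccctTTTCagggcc
Found in 6 members, Hist1h2bb and Hist1h3e among them: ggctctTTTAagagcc
Found in the H4 genes Hist1h4i and Hist2h4: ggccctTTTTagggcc
Found in the H4 genes Hist1h4b and Hist1h4j: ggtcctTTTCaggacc
Found in Hist2h2ac: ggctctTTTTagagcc
The H4 spellings differed from the others in the stem, and no H4 gene carried the commonest spelling. The transcript model ran more than 100 bases past the stem-loop in 22 members and ended within 100 bases of it in 21. In 24 members the model had no such stem-loop, and a model that stops short of the stem-loop is counted among these.

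Most members lie on chromosome 13 (54 genes), in a first stretch of 23 genes at chr13:21715763-22043676 and a second stretch of 31 genes at chr13:23531050-23934851 (GRCm38). A further 10 genes lie on chromosome 3, 2 on chromosome 11 and 1 on chromosome 6. H2A and H2B genes often stand head to head and share the DNA between their start sites. There were 13 head-to-head pairs with start sites at most 1000 bases apart, and 12 of them joined an H2A with an H2B gene.

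RefSeq promoter windows (GRCm38.p6, 250 bases before to 50 after the start) were matched for 62 members, which have 63 windows. Windows are shown for members that were called and that represent a shared H2A-H2B promoter, an H1 promoter, the Hist3 locus and an H4 promoter. Capitals mark 3 motifs, each searched on both strands. The CCAAT box was searched as CCAAT and as its reverse complement. The TATA box was searched as TATAAA and as its reverse complement. The octamer was searched as ATTTGCAT and as its reverse complement. The motifs do not overlap each other in the printed windows.
Hist1h2bg, whose window also covers the start of Hist1h2ae, chr13:23571150-23571449, plus strand: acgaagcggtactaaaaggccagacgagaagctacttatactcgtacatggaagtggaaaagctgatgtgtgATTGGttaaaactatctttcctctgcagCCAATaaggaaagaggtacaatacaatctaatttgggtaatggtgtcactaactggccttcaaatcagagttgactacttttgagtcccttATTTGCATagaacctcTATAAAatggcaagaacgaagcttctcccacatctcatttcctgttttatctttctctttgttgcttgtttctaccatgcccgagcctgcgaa
Hist1h1c, chr13:23738557-23738856, plus strand: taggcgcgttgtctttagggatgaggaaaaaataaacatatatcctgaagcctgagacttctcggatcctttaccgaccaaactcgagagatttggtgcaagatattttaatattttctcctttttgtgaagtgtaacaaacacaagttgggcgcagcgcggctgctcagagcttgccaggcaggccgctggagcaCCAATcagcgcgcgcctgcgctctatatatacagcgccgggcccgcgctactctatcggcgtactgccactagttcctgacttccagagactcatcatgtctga
Hist3h2ba, chr11:58948661-58948960, plus strand: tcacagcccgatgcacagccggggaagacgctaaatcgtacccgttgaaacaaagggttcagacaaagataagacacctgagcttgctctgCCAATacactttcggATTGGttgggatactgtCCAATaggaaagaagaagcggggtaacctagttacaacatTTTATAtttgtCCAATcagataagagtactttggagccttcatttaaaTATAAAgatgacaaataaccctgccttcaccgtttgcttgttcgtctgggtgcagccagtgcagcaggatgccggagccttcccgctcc
Hist1h4d, chr13:23581318-23581617, plus strand: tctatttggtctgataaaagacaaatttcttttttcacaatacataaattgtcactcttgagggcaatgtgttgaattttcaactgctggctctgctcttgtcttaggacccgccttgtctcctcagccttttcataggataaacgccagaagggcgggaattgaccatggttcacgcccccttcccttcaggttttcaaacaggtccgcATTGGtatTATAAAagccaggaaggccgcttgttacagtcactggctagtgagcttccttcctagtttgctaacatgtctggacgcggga
CCAAT on either strand was present in 85.7% of member windows, against 37.4% of all 32851 RefSeq windows of this length. It was present in every matched window of the H1, H2A, H2B and H3 genes and in 3 of the 12 H4 windows. TATAAA was present in 55.6% of member windows against 13.6% of all windows. The octamer was present in 22.2% of member windows against 1.74% of all windows, in 7 of 18 H2A and 7 of 17 H2B windows and in no window of the other classes. Head-to-head genes have overlapping windows, so their matches are not independent, and a match is a run of letters and not a measured binding site.

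Histone cluster genes took 0.0713% to 0.118% of the reads of each library. Of the 67 members, 6 had no read in any library, 6 were below edgeR's filter on low counts and 55 were tested. The 6 without a read were Hist1h2aa and 5 members of the Hist2 locus on chromosome 3. For the 5 Hist2 members, every 150-base window of the transcript, the length of a read, also occurs in another gene, and how the counting treated reads that align to several genes is not given in the sources used here. Hist1h2bq also shares every window of its longest transcript and had 168 reads. Its other transcripts were not searched, so these reads do not tell whether full sharing by itself gives a count of 0. For these 5 genes, a count of 0 does not show that they were not expressed.

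Reads were concentrated in a few genes. Hist1h2ao, Hist1h2ap, Hist1h2ae and Hist1h2bc, which are H2A and H2B genes of chromosome 13, held 37.0% of the 120221 reads counted on members. Per kilobase, the level in EpCAM+ libraries was 266 CPM for Hist1h2ao, 192 CPM for Hist1h2ap and 132 CPM for Hist1h2ae, against 65.1 for Hist1h2bc and 47.6 for Hist1h4d. Hist1h2ao and Hist1h2ap share 91.5% and 91.0% of their 150-base windows with other genes, so the split of reads between them and their near-identical copies is uncertain. By median CPM over the 8 libraries, the most abundant H1 gene was Hist1h1e, the most abundant H3 gene was Hist1h3d and the most abundant H4 gene was Hist1h4d. These ranks do not correct for gene length, and per kilobase neither Hist1h1e nor Hist1h3d was the highest of its class.

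Summed over all 67 members, the level was 846, 1072, 1124 and 1102 CPM in EpCAM+ replicates 1 to 4 and 709, 1003, 1009 and 852 CPM in EpCAM- replicates 1 to 4. The ranges of the fractions overlapped, the library numbered 1 was the lowest in each fraction, and the EpCAM+ library was above the EpCAM- library of the same number in 4 of 4 pairs. The means were 1036 ± 128 and 893 ± 143 CPM (SD, n = 4), a log2 ratio of 0.21. Leaving out EpCAM- replicate 1 lowered this ratio to 0.11. In bulk samples, fewer cells of a type and less RNA per cell cannot be told apart.

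The summed level of each class is given in turn. H2B genes summed to 208 ± 28.7 CPM in EpCAM+ and 156 ± 23.3 CPM in EpCAM- libraries (1.33-fold), with overlapping ranges and the EpCAM+ library higher in 4 of 4 pairs. H3 genes summed to 67.7 ± 11 against 55.7 ± 13.6 CPM and H2A genes to 453 ± 82.0 against 389 ± 84.3 CPM, each higher in 4 of 4 pairs. H1 genes summed to 185 ± 15.4 against 167 ± 20.9 CPM, higher in 3 of 4 pairs. H4 genes summed to 122 ± 10.2 against 126 ± 14.4 CPM, higher in 1 of 4 pairs, with a log2 ratio of -0.05 that became 0.04 under upper-quartile scaling, 0.04 with library totals and 0.02 without EpCAM- replicate 2. Leaving out 1 library moved the log2 ratio from 0.22 to 0.08 for H2A and from 0.28 to 0.15 for H3 (each without EpCAM- replicate 1), and from 0.15 to 0.08 (without EpCAM- replicate 4) or 0.09 (without EpCAM+ replicate 3) for H1. For H2A, the ratio also moved to 0.14 without EpCAM+ replicate 4 and 0.34 without EpCAM+ replicate 1. For H2B it lay between 0.31 and 0.50. These sums have no test, and differences between classes were not tested.

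**Figure D1:**
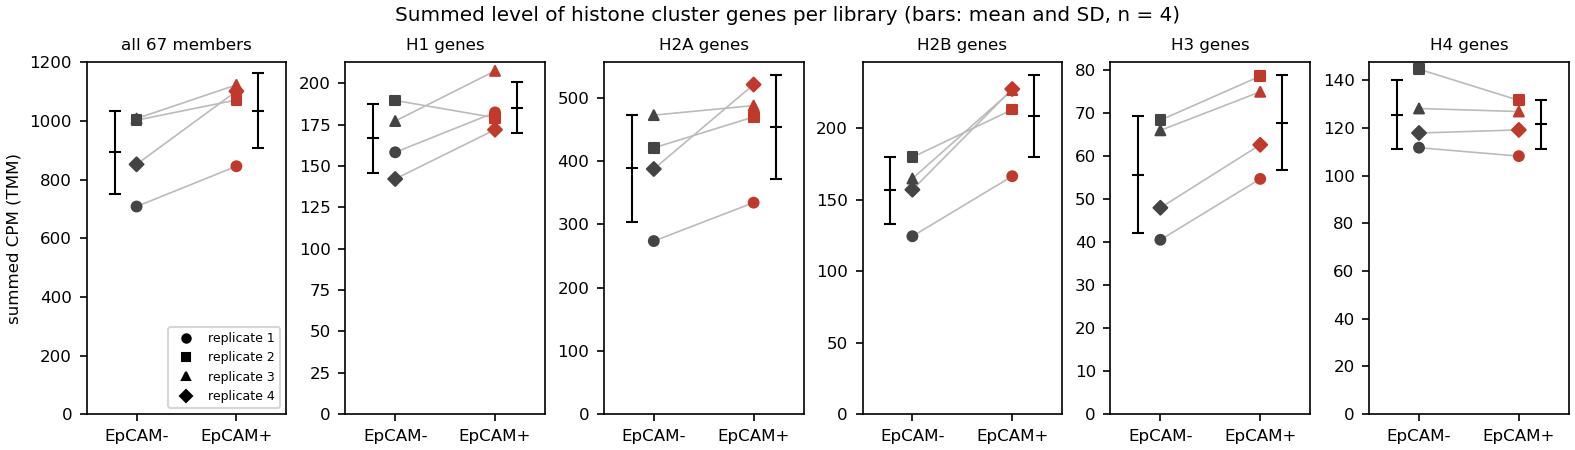
Summed CPM of all 67 members and of each histone class (vertical axes, from 0, in CPM on TMM-scaled library sizes) in EpCAM- and EpCAM+ libraries, with a marker for each replicate number, lines joining equal numbers and bars for the mean and SD of 4 libraries. The lines rise from EpCAM- to EpCAM+ in 4 of 4 pairs for H2A, H2B and H3, in 3 for H1 and in 1 for H4.

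Gene by gene, the edgeR quasi-likelihood test (adjusted p by Benjamini-Hochberg) called 7 of the 55 tested members higher and 1 lower in EpCAM+ HSPCs. This was 12.7% of the members for higher calls, against 21.8% of all 13560 tested genes, and 1.82% for lower calls, against 20.8%. By class, higher calls were 20% of tested H1, 15.4% of H2A and 20% of H2B genes. They were 10% of H3 and 0% of H4 genes, beside the same 21.8%. The 4 values of the fractions did not overlap in 4 members (7.27%), against 40.1% of all tested genes. The fitted log2 fold change was above 0 in 40 members and below 0 in 15, while 52% of all tested genes were fitted above 0. Members had a median of 0.21 and a range of -0.38 to 1.28, against a median of 0.02 over all tested genes. The members' median was 0.12 without EpCAM- replicate 1, 0.13 without EpCAM- replicate 4, 0.15 without EpCAM+ replicate 3, 0.32 without EpCAM+ replicate 1 and 0.33 without EpCAM- replicate 3. Thus, in this fit without the replicate number, the shares of members called were below the background in each direction. The fitted values lay mostly on the EpCAM+ side.

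Part of the spread ran with the replicate number. The EpCAM+ value exceeded the EpCAM- value of the same number in 4 of 4 pairs for 24 members (43.6%), against 32% of all tested genes, and in none of the pairs for 2 members (3.64%), against 30.6%. With the replicate number as a block in the edgeR fit, 15 members were called higher (27.3%, against 25.6% of all tested genes) and 1 lower (1.82%, against 24.7%). Over all members, the share of higher calls was then near the background, and the share of lower calls was below it. By class, higher calls with the block were 40% of 5 tested H1, 38.5% of 13 H2A and 40% of 15 H2B genes. They were 20% of 10 H3 and 0% of 12 H4 genes, beside the same 25.6%, and differences between classes were not tested. The 8 members called higher only with this block were Hist1h2ac, Hist1h2ao, Hist1h2bb, Hist1h2be, Hist1h2bl, Hist1h1d, Hist3h2a and Hist1h3d.

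**Figure D2:**
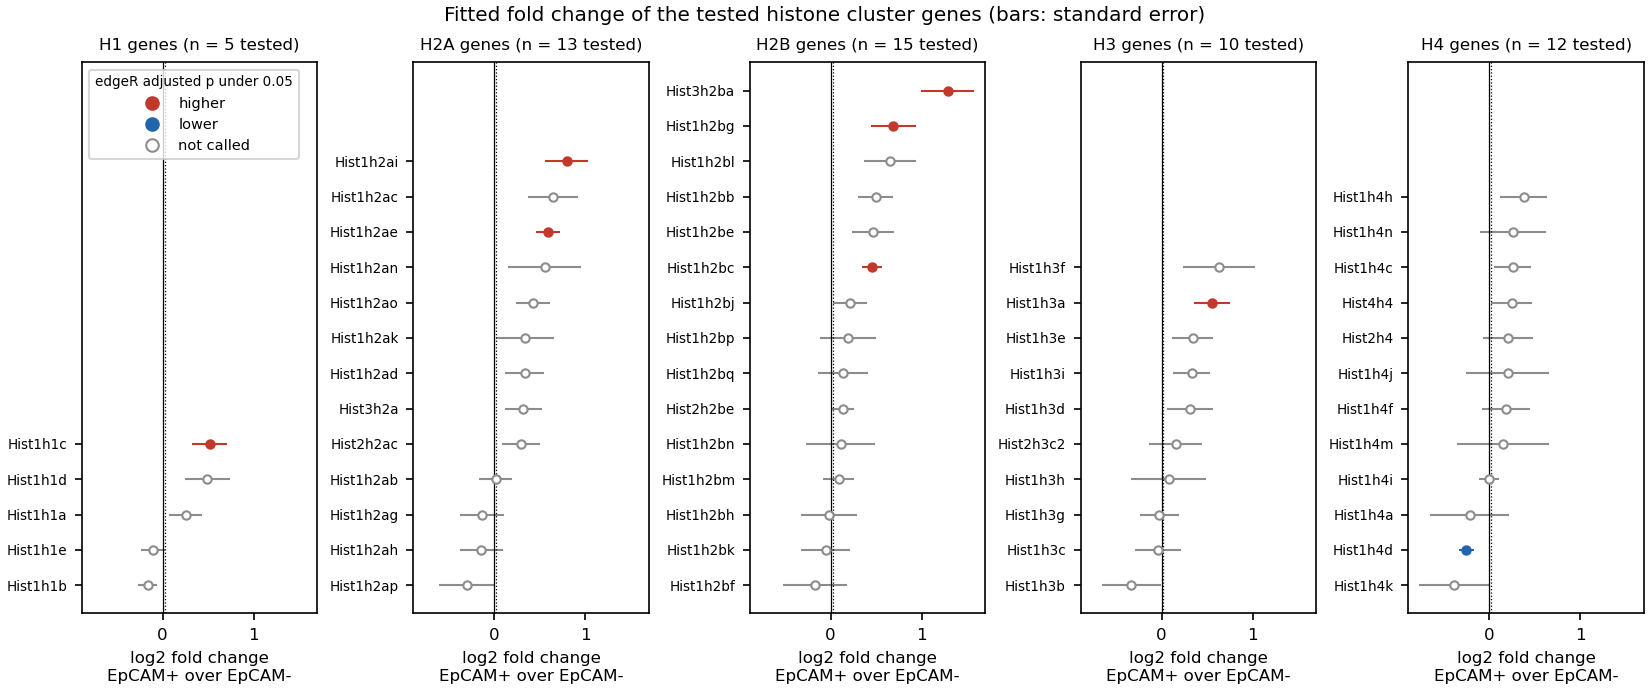
Fitted log2 fold change (horizontal axis, EpCAM+ over EpCAM-; bars are the standard error) of the 55 tested members in 5 panels by class, without the replicate block. Filled red points are the 7 members called higher and the filled blue point is Hist1h4d, the 1 member called lower; the dotted line is the median of all tested genes, 0.02.

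Among the H2A genes, 2 of 13 tested were called higher and none lower, and 10 were fitted above 0. Hist1h2ae (chr13:23570517-23571220) was at 75.4, 90.7, 94.6 and 112 CPM in EpCAM+ replicates 1 to 4 and at 50.5, 73.9, 60.4 and 62.1 CPM in EpCAM- replicates 1 to 4. Every EpCAM+ library was above every EpCAM- library, by a narrow margin between the lowest EpCAM+ and the highest EpCAM- library. The log2 fold change was 0.59 (SE 0.135, edgeR adjusted p = 0.00611, and 0.00101 with the replicate block). Hist1h2ai (chr13:21716422-21716814) was at 3.66, 6.24, 6.43 and 6.10 CPM in EpCAM+ and 2.50, 3.33, 4.03 and 3.09 CPM in EpCAM- libraries. EpCAM+ replicate 1 lay below EpCAM- replicate 3, while the other EpCAM+ libraries lay above all EpCAM- libraries. Its log2 fold change was 0.79 (SE 0.236, edgeR adjusted p = 0.0209, and 0.00741 with the replicate block). Of its 150-base windows, 86.1% are shared with other genes, so its reads are uncertain.

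The most abundant H2A genes were not called without the block. Hist1h2ao was at 100, 116, 132 and 163 CPM in EpCAM+ and 69.2, 103, 86.8 and 123 CPM in EpCAM- libraries, higher in each of the 4 pairs with overlapping ranges. Its log2 fold change was 0.42 (SE 0.184, edgeR adjusted p = 0.0876), and with the replicate block its adjusted p was 0.00232. Hist1h2ap was at 59.2, 119, 101 and 90.5 CPM in EpCAM+ and 63.1, 118, 187 and 87.4 CPM in EpCAM- libraries. The value of 187 CPM in EpCAM- replicate 3 stood above all others, and the log2 fold change of -0.30 (SE 0.305, edgeR adjusted p = 0.451) became 0.04 without that library.

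Among the H2B genes, 3 of 15 tested were called higher and none lower, and 12 were fitted above 0. Hist1h2bc (chr13:23684199-23692908) was at 66.6, 77.5, 74.0 and 83.1 CPM in EpCAM+ and 47.3, 64.4, 51.6 and 56.5 CPM in EpCAM- libraries. The fractions did not overlap, and the log2 fold change was 0.46 (SE 0.106, edgeR adjusted p = 0.00665, and 0.00109 with the replicate block). Hist1h2bg (chr13:23571396-23572013), the head-to-head neighbour of Hist1h2ae, was at 26.2, 42.0, 52.4 and 51.6 CPM in EpCAM+ and 16.5, 31.9, 31.5 and 27.1 CPM in EpCAM- libraries. EpCAM+ replicate 1 lay below 3 of the EpCAM- libraries, and replicate 1 was the lowest library in each fraction. The log2 fold change was 0.69 (SE 0.245, edgeR adjusted p = 0.0437, and 0.00082 with the replicate block).

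Hist3h2ba (chr11:58948920-58949533), an H2B gene outside the large clusters, had the largest fitted fold change of the tested members at a low level. It was at 3.01, 4.03, 4.58 and 4.67 CPM in EpCAM+ and 1.69, 1.41, 1.02 and 2.57 CPM in EpCAM- libraries, from 367 reads in all. The fractions did not overlap, and the log2 fold change was 1.28 (SE 0.295, edgeR adjusted p = 0.00633, and 0.00524 with the replicate block). None of its 150-base windows is shared with another gene. Its neighbour Hist3h2a, an H2A gene, was at 9.74, 10.8, 13.4 and 14.2 CPM in EpCAM+ and 7.30, 8.07, 10.2 and 13 CPM in EpCAM- libraries, with overlapping ranges. Hist3h2a had a log2 fold change of 0.32 (SE 0.201, edgeR adjusted p = 0.221, and 0.0448 with the replicate block).

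Among the H1 genes, 1 of 5 tested was called higher. Hist1h1c (chr13:23738808-23740367), which encodes a linker histone found in most somatic cells, was at 42.4, 47.7, 71.4 and 55.8 CPM in EpCAM+ and 27.2, 36.3, 45.5 and 43.2 CPM in EpCAM- libraries. EpCAM+ replicate 1 was below EpCAM- replicates 3 and 4, and each EpCAM+ library was above its numbered partner. The log2 fold change was 0.52 (SE 0.188, edgeR adjusted p = 0.048, and 0.00114 with the replicate block). Hist1h1e, the clustered H1 gene with the highest median CPM over the 8 libraries, was at 55.0, 48.6, 52.6 and 45.6 CPM in EpCAM+ and 57.7, 64.4, 55.1 and 40.1 CPM in EpCAM- libraries. Its log2 fold change was -0.11 (SE 0.132, edgeR adjusted p = 0.539). Hist1h1t, a testis linker histone, had 2 reads in all.

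Among the H3 genes, 1 of 10 tested was called higher and 7 were fitted above 0. Hist1h3a (chr13:23761853-23762386) was at 10.6, 12.6, 15.9 and 12.3 CPM in EpCAM+ and 6.49, 9.84, 11.5 and 7.35 CPM in EpCAM- libraries, with EpCAM+ replicate 1 below EpCAM- replicate 3. Its log2 fold change was 0.55 (SE 0.2, edgeR adjusted p = 0.0467, and 0.0059 with the replicate block). Hist1h3d, the H3 gene with the highest median CPM, was at 14.1, 23.6, 15 and 12.8 CPM in EpCAM+ and 9.92, 19.3, 13.6 and 9.93 CPM in EpCAM- libraries. Replicate 2 was the highest library of each fraction, and the log2 fold change was 0.32 (SE 0.252, edgeR adjusted p = 0.33, and 0.0332 with the replicate block). It was 0.09 without EpCAM+ replicate 2, 0.20 without EpCAM- replicate 1 or 4 and 0.55 without EpCAM- replicate 2.

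No H4 gene was called higher, with or without the replicate block, and 1 of 12 tested was called lower. Hist1h4d (chr13:23581598-23582735) was at 49.4, 56.6, 53.8 and 56.8 CPM in EpCAM+ and 60.9, 71.3, 58.4 and 67.6 CPM in EpCAM- libraries. Every EpCAM- library was above every EpCAM+ library, the lowest by a small margin. The log2 fold change was -0.25 (SE 0.0855, edgeR adjusted p = 0.0362, and 0.0134 with the replicate block). The edgeR adjusted p was 0.157 with upper-quartile scaling, 0.142 with library totals and 0.0509 among genes with 10 counts in every library. Hist1h4i, the second most abundant H4 gene, was at 21.1, 25.2, 22.7 and 24.4 CPM in EpCAM+ and 19.5, 24.6, 25.5 and 24.2 CPM in EpCAM- libraries, a log2 fold change of -0.01 (SE 0.109, edgeR adjusted p = 0.962).

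**Figure D3:**
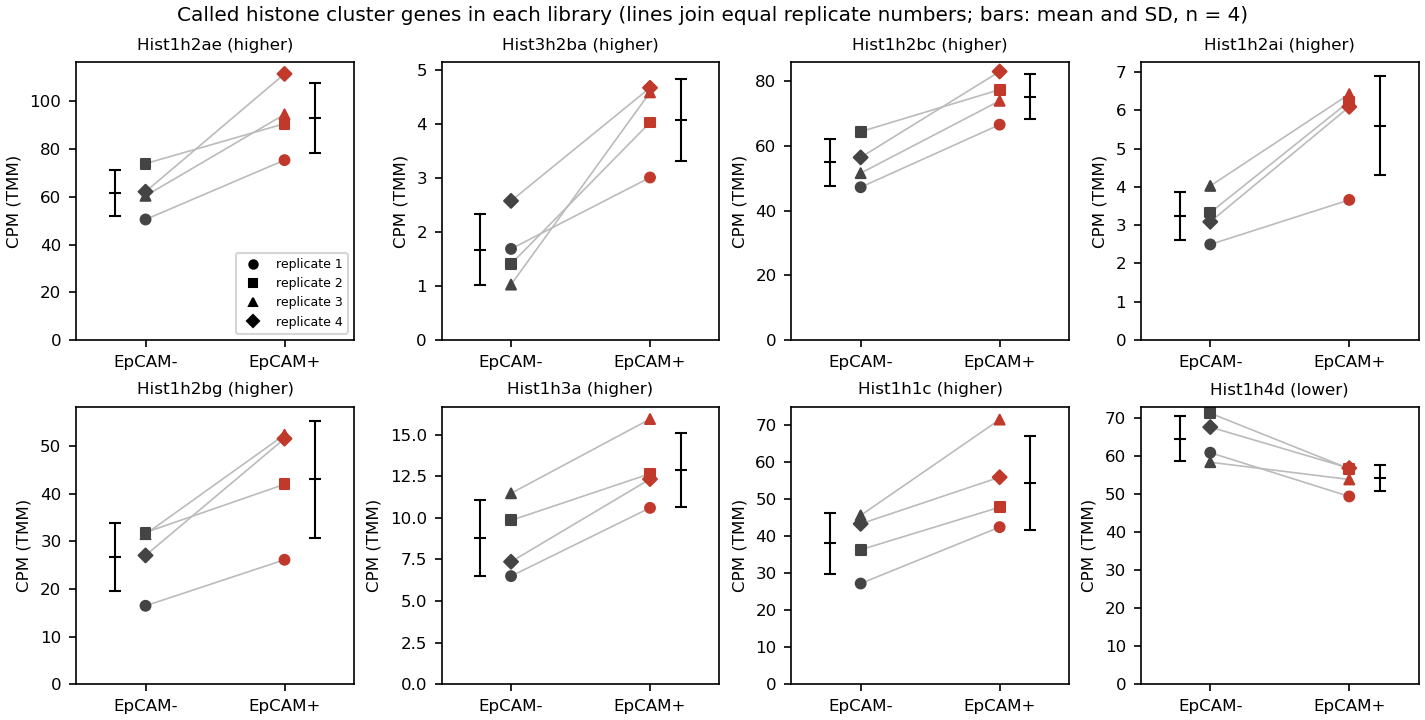
CPM (vertical axes, from 0, on TMM-scaled library sizes) of the 8 called members in each library, with a marker for each replicate number, lines joining equal numbers and bars for the mean and SD of 4 libraries. Every line rises for the 7 members called higher and falls for Hist1h4d, while replicate 1 is the lowest EpCAM+ library in all 8 panels.

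Without the replicate block, leaving out single libraries ended several calls while the fitted direction held. With the block and every library, each member called in the main fit kept its call. Hist1h2ae, Hist3h2ba and Hist1h2bc passed in all 8 edgeR fits that left out a library. Hist1h2ai passed in 5 of 8 and lost its call without EpCAM+ replicate 2, 3 or 4, with log2 fold changes of 0.72 to 0.75 and adjusted p of 0.0505 to 0.0615. Hist1h2bg passed in 2 of 8, those without EpCAM+ replicate 1 or EpCAM- replicate 2, with log2 fold changes of 0.51 to 0.86 over the 8 fits. Hist1h3a passed in 2 of 8, those without EpCAM+ replicate 1 or EpCAM- replicate 3, with log2 fold changes of 0.42 to 0.70. Hist1h1c passed in 3 of 8, those without EpCAM+ replicate 1, EpCAM+ replicate 2 or EpCAM- replicate 3, with log2 fold changes of 0.35 to 0.61. Hist1h4d passed in 3 of 8, those without EpCAM+ replicate 4, EpCAM- replicate 1 or EpCAM- replicate 3, with log2 fold changes of -0.30 to -0.21. The count of members called higher was 9 without EpCAM+ replicate 1, 4 without EpCAM+ replicate 2, 3 without EpCAM+ replicate 3, 3 without EpCAM+ replicate 4 and 4 without EpCAM- replicate 1. The count called lower was 0 without EpCAM+ replicate 1, EpCAM+ replicate 3 or EpCAM- replicate 2. With the replicate block, leaving out each numbered pair in turn left 11 to 14 members higher and 0 to 2 lower.

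The head-to-head arrangement put several of these genes side by side. Of the 13 head-to-head pairs, both genes were tested in 11, and the fitted fold changes had the same sign in 8. Since 40 of the 55 tested members were fitted above 0, equal signs are frequent in any pair of members. The pairs were not compared with other pairs. Both genes were called in 1 pair, Hist1h2ae and Hist1h2bg, whose start sites are 176 bases apart and whose shared promoter is printed above. Hist1h2ac stands head to head with Hist1h2bc at 251 bases and had a log2 fold change of 0.65 (SE 0.278, edgeR adjusted p = 0.0842, and 0.000461 with the replicate block). Hist1h2bl stands head to head with Hist1h2ai at 279 bases and had a log2 fold change of 0.65 (SE 0.286, edgeR adjusted p = 0.0895, and 0.0202 with the replicate block). By contrast, Hist1h2bf and Hist1h2ad, 185 bases apart, were fitted at -0.17 and 0.33, and neither was called. By position, 5 of 26 tested genes of the second chromosome 13 stretch were called higher and 1 lower (median log2 fold change 0.33). In the first stretch, 1 of 22 was called higher and none lower (median 0.14). The shares called higher were 19.2% and 4.55%, beside 21.8% of all tested genes, and those called lower 3.85% and 0%, beside 20.8%. With the replicate block, 38.5% and 13.6% were called higher, beside 25.6%, and 3.85% and 0% lower, beside 24.7%. The first stretch also shares more sequence, with a median of 57.1% of windows shared among its tested genes against 18.4% in the second, and the difference between the stretches was not tested.

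The annotated transcript end was set beside the fold changes, since polyadenylated histone transcripts can run past the stem-loop. Of 20 tested members whose model runs more than 100 bases past the stem-loop, 4 were called higher and 1 lower, with a median log2 fold change of 0.32. They were Hist1h2ae, Hist1h2bg, Hist1h1c and Hist3h2ba, and Hist1h4d was the lower one. Of 18 whose model ends within 100 bases of the stem-loop, 1 was called higher (Hist1h3a), with a median of 0.17. Of 17 with no stem-loop in the model, 2 were called higher (Hist1h2ai and Hist1h2bc), with a median of 0.14. Several of these models are short, at 393 bases for Hist1h2ai and 312 for Hist1h4k. A stem-loop beyond the annotated end would be missed, so this group is not a type of transcript. With the replicate block, 9 of 20, 3 of 18 and 3 of 17 were called higher. Without the block the shares called higher were 20%, 5.56% and 11.8%, beside 21.8% of all tested genes. With the block they were 45%, 16.7% and 17.6%, beside 25.6% of all tested genes. The shares called lower were 5%, 0% and 0% in both fits, beside 20.8% without and 24.7% with the block. AATAAA or ATTAAA was present within 40 bases of the model's end in Hist1h2ae, Hist3h2ba and Hist1h1c, and in neither Hist1h2bg nor Hist1h4d. The differences between these groups were not tested, and the gene counts do not tell where a transcript ended.

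Shared sequence was set beside the fold changes in the same way. Of 30 tested members with at most 25% of windows shared with another gene, 5 were called higher and 1 lower (median 0.25). Of 25 with more than 25% shared, 2 were called higher and none lower (median 0.16). The shares called higher were 16.7% and 8%, beside 21.8% of all tested genes, and those called lower 3.33% and 0%, beside 20.8%. With the replicate block, 33.3% and 20% were called higher, beside 25.6%, and 3.33% and 0% lower, beside 24.7%. The difference between these groups was not tested. The median was above 0 in both groups of members.

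**Figure D4:**
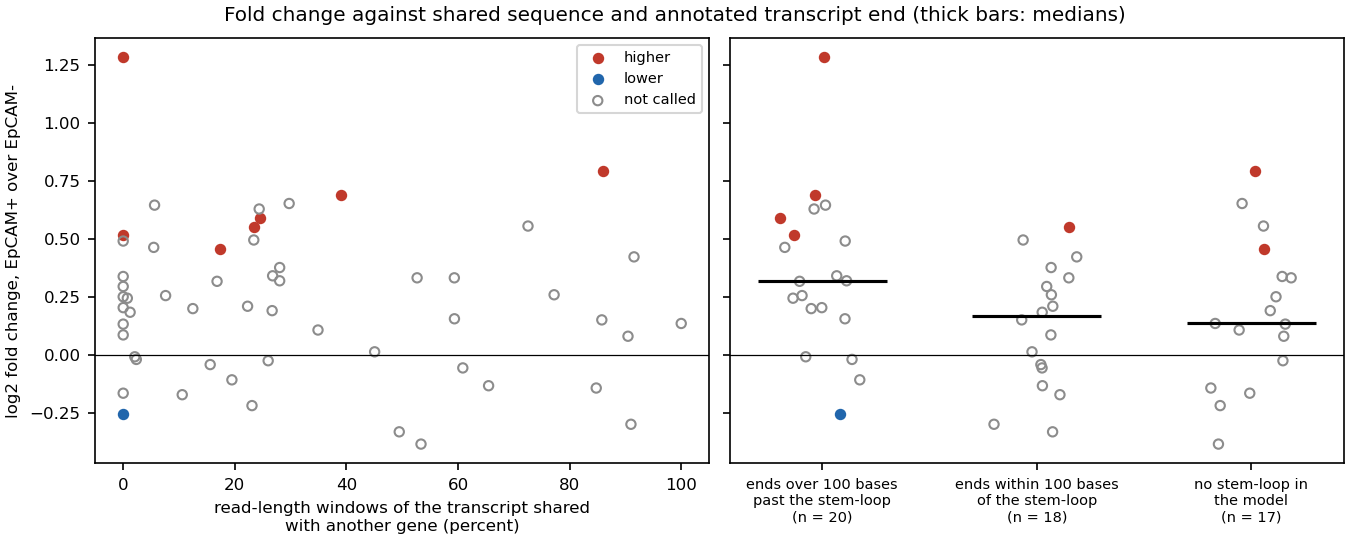
Log2 fold change (vertical axis, EpCAM+ over EpCAM-) of the 55 tested members against the percent of 150-base windows shared with another gene (left) and by annotated transcript end (right; bars are medians of 20, 18 and 17 members). Called members appear at low and at high shared percentages, and the medians are 0.32, 0.17 and 0.14 from left to right in the right panel.

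Genes around histone synthesis were given by lists, whose counts are set beside the same background of 21.8% higher and 20.8% lower calls. Counts with the replicate block are set beside 25.6% higher and 24.7% lower calls. Of 30 S-phase genes, none was called higher and 18 were called lower, with a median log2 fold change of -0.28 (23 lower with the replicate block). Rrm2, a ribonucleotide reductase subunit, was at 236 ± 32.3 against 385 ± 34.2 CPM, a log2 fold change of -0.71 (SE 0.107, edgeR adjusted p = 0.000808). Rfc4, a subunit of the clamp loader, had a log2 fold change of -0.50 and Cdc6, which loads the replicative helicase, one of -0.67 (edgeR adjusted p = 0.000881 and 0.000896). Of 24 G2 and M-phase genes, none was called higher and 13 were called lower (median -0.28; 17 lower with the replicate block), with Ccna2 at -0.57, Aurka at -0.51 and Aurkb at -0.48. The histone cluster genes thus stood at a median of 0.21 where the S-phase list stood at -0.28, each beside 0.02 for all tested genes, and the difference between the lists was not tested.

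Genes that make and handle histone mRNA and protein were also called lower more often than higher. Of 22 tested genes for histone pre-mRNA processing and transcription, none was called higher and 10 were called lower (median -0.22; 12 lower with the replicate block). Ccne1, the cyclin that acts with CDK2 on the histone gene coactivator NPAT, was at 19.1 ± 1.94 against 89.4 ± 23.7 CPM, a log2 fold change of -2.23 (SE 0.173, edgeR adjusted p = 9.33e-05). Ncbp1, a cap-binding protein, had a log2 fold change of -0.54 and Srrt, which links the cap to 3' end processing, one of -0.38 (edgeR adjusted p = 0.000745 and 0.00124). Of 20 histone chaperones, 1 was called higher and 11 lower (median -0.29; 2 higher and 11 lower with the replicate block). Npm1 was at 827 ± 96.9 against 1418 ± 215 CPM (log2 fold change -0.78, edgeR adjusted p = 0.00121), and Asf1a, an H3-H4 chaperone, and Hat1, which acetylates new H4, had log2 fold changes of -0.55 and -0.38.

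Histone variants that lie outside the clusters, most of which are replication independent and give polyadenylated mRNA, were split. Of 11 tested, 4 were called higher and 3 lower (median 0.09). The linker variant H1f0, known to accumulate in cells that leave the cycle, was at 159 ± 21.3 against 96.4 ± 13.9 CPM, a log2 fold change of 0.72 (SE 0.122, edgeR adjusted p = 0.00133). H1fx, another linker variant, was at 8.70 ± 1.65 against 4.10 ± 0.464 CPM (log2 fold change 1.08, edgeR adjusted p = 0.00153), and the H2A variant H2afj at 79.6 ± 2.80 against 110 ± 10.2 CPM (log2 fold change -0.47, edgeR adjusted p = 0.00128). Of 5 tested CDK inhibitors, 2 were called higher and 1 lower (median 0.36). Cdkn1c had a log2 fold change of 1.49 and Cdkn2d one of 0.39, while Cdkn1a had one of -1.0.

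**Figure D5:**
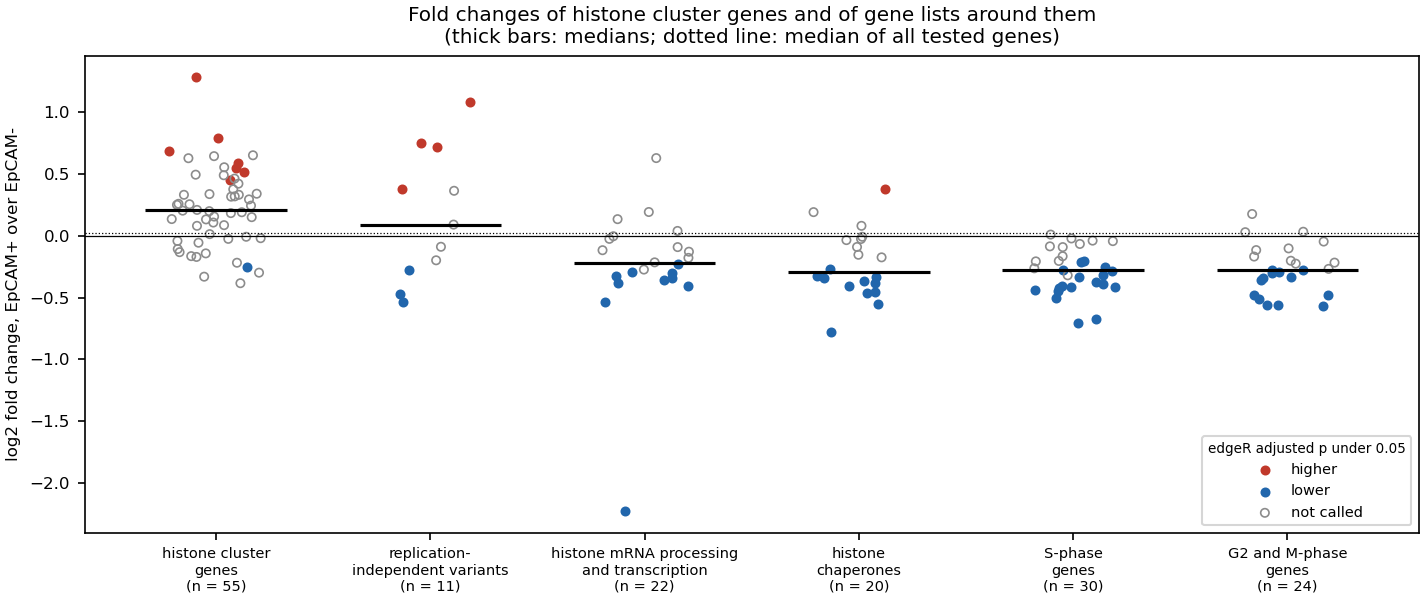
Log2 fold change (vertical axis, EpCAM+ over EpCAM-) of each tested gene of 6 lists, with thick bars for the medians, a dotted line at the median of all tested genes (0.02) and filled points for genes called higher (red) or lower (blue). The medians are 0.21 for the histone cluster genes, 0.09 for the variants, -0.22 for processing and transcription, -0.29 for chaperones and -0.28 for the S-phase and the G2 and M-phase genes.

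Marker genes of blood cell types also differed between the fractions, and their part in the histone values was not tested. Over all tested genes, 21.8% were called higher and 20.8% lower. Of 10 tested genes of the LSK gate and of stem cells, 8 were called higher in EpCAM+ HSPCs (summed level 1996 to 2236 CPM against 1088 to 1583). Of the tested neutrophil markers, 4 of 9 were called lower (1097 to 1853 against 11942 to 18563 CPM). Of the tested erythroid markers, 5 of 8 were called lower and 1 higher (71.1 to 132 against 390 to 937 CPM). Of the tested monocyte and macrophage markers, 3 of 5 were called lower (33.3 to 314 against 145 to 778 CPM). Summed over all listed markers, those of dendritic cells were at 1022 to 12826 CPM in EpCAM+ against 244 to 434 CPM in EpCAM- libraries. This sum was made mostly by Cd74 (4525 ± 3828 against 64.2 ± 70.3 CPM) and H2-Ab1 (2622 ± 2181 against 114 ± 27.1 CPM). Of 7 tested dendritic cell markers, 5 were called higher, while Zbtb46 and Bst2 were not called. Plasma cell markers were at 391 to 3990 against 171 to 259 CPM, with 4 of 6 tested called higher. In EpCAM+ libraries this sum was made mostly by Jchain (1093 ± 1624 CPM), with 53916 of its 68566 reads in 1 library. In EpCAM- libraries it was made mostly by Xbp1, which was not called (238 ± 75.5 against 225 ± 39.2 CPM, edgeR adjusted p = 0.767). B cell markers were at 72.0 to 122 against 46.3 to 79.2 CPM, a sum made mostly by Cd79b (69.2 ± 3.76 against 56.3 ± 13.9 CPM). Cd79b was not called without the replicate block (edgeR adjusted p = 0.12, and 0.037 with the block). Of the 8 B cell markers, 5 were too low to test and 2 were called higher. T cell markers were at 66.1 to 97.3 against 30.2 to 47.3 CPM, a sum made mostly by Lat (78.6 ± 13.5 against 38.5 ± 7.34 CPM). Of the 9 T cell markers, 7 were too low to test, with Cd3e at 1 read, and 2 were called higher. Megakaryocyte markers were at 128 to 367 against 83.5 to 286 CPM, with 1 of 5 tested called higher. With the replicate block, 9 LSK gate and stem cell, 5 plasma cell, 3 B cell and 2 megakaryocyte genes were called higher. In that fit, 6 erythroid and 4 monocyte and macrophage markers were called lower, beside 25.6% higher and 24.7% lower calls over all tested genes. The block did not change the other counts of marker calls. Markers that are nearly unread in EpCAM- libraries, such as Ms4a1 (5.89 against 0.0341 CPM), passed the filter on low counts only through the EpCAM+ libraries, so these counts of calls describe the markers that could be tested. Pax5, which defines B cells, had no read in any library. Mpo, a granule enzyme of the neutrophil lineage, was at 781 ± 269 against 10435 ± 1505 CPM.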

How the data were processed

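RNA from LSK cells was amplified with SMART-Seq v4, and libraries were made from 1 ng of cDNA and sequenced as paired 150-bp reads. The authors aligned reads to GRCm38.p6 with STAR 2.6.1d and deposited raw counts per gene from featureCounts 1.5.0-p3, per the submitters' processing notes. The handling of multimapping reads and of strand is not given in the sources used here. The 8 FPKM columns and the fold changes and p-values that the authors computed, also for libraries of equal replicate number, were not used.

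Genes were filtered with filterByExpr, scaled by TMM and tested with edgeR 4.0.16 (two-sided quasi-likelihood test, Benjamini-Hochberg threshold 0.05) in R 4.3.3. Standard errors came from the F statistic. CPM use the TMM-scaled library size. DESeq2 1.42.0, other scaling and filters, a replicate block and each left-out library were alternatives. The procedure was tested on simulated data. Members and lists were chosen with earlier results of these data known. The text names every called member, those called only with the block, the 2 highest members of each class by median CPM, and up to 3 genes a list by adjusted p. Head-to-head neighbours, the members set beside a sequence and those at 0 were named after their values were seen.

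Libraries with equal numbers deviated together from their fraction means (correlation across genes 0.230 to 0.378 in 4 pairs, -0.233 to 0.0420 in the other 12). The numbers were therefore taken to pair the libraries, although the labels do not say what they share. The main fit, its standard errors and the fits without single libraries did not use this pairing. Without a stated source of separate mice for each library, p-values measure the spread between these libraries. No library duplicated another (chi-square per degree of freedom 10.3 to 97.4). Reads carry no molecular identifiers. Transcripts and stem-loops came from GENCODE M21 and promoters from RefSeq.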

Additional observations from a re-analysis of the deposited data

Results flagged for a closer look

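Among the groups of 4 libraries examined for the named members and the class sums, 1 of 38 held a library far from the others. Hist1h2ai was at 3.66 CPM in EpCAM+ replicate 1, while the other EpCAM+ libraries lay between 6.10 and 6.43 CPM. The gap was 0.88 of the group's range, above Dixon's critical value. Chance flags about 1 in 20 such groups.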

How the results depend on the processing

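Under the 7 alternatives that kept every library, the count of members called higher was 6 to 9, except that it was 15 with the replicate block, and it was 5 among members with at most 25% of windows shared, an alternative chosen after seeing the data. The count called lower was 0 with upper-quartile scaling, with library totals and among genes with 10 counts in every library. Leaving out 1 library gave 3 to 9 members higher and 0 to 1 lower. With the replicate block and 1 numbered pair left out, also chosen after seeing the data, 11, 13, 11 and 14 members were higher and 1, 0, 1 and 2 lower for pairs 1 to 4. The 8 members that the block added are named in the report, and it changed no other call of a member. The log2 fold change of Hist1h4i turned positive in 8 fits, at 0.080 with upper-quartile scaling, 0.079 with library totals and 0.018 with 10 counts in every library, and it lay between -0.093 and 0.033 without single libraries. That of Hist1h2ap lay between -0.50 and 0.042, the latter without EpCAM- replicate 3. The median of all tested genes moved from 0.02 to 0.11 under upper-quartile scaling and library totals, and that of the members from 0.21 to 0.30, while leaving out 1 library put the members' median between 0.12 and 0.33. The cause of these changes was not tested. Of the 12 untested members, which had at most 38 reads each over all libraries, 5 without a read share all windows with other genes.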

Other observations

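Besides the 67 protein-coding members, 3 pseudogenes carry a cluster name. Hist1h2aj, an unprocessed H2A pseudogene, had 74, 140, 143 and 177 reads in EpCAM+ replicates 1 to 4 and 64, 72, 38 and 49 in EpCAM- replicates 1 to 4. It was at 8.06 ± 2.71 against 3.88 ± 1.13 CPM (SD, n = 4), a log2 fold change of 1.06 (SE 0.287, edgeR adjusted p = 0.0141), and pseudogenes can share reads with their parent genes. Hist3h2bb-ps had a log2 fold change of 0.26 (SE 0.57, edgeR adjusted p = 0.736), and Hist1h2al had no read. Zeb1, the deleted gene, was at 19.5 ± 3.75 CPM in EpCAM+ and 11.9 ± 2.14 CPM in EpCAM- libraries; the gene count does not separate the deleted exon from the rest.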
